A study of Mus musculus with 5 samples.

Results

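The insulin-like growth factor (IGF) receptors and binding proteins were followed here across 5 mouse cell populations, as the ligand gene Igf1, the receptor genes Igf1r and Insr, and the binding protein genes Igfbp1 to Igfbp7. These 10 genes were read through array probes whose transcript accession belongs to them. Probes were found for 9 of the 10 genes, and no probe was matched to Igfbp6. The 9 genes had 15 of the 41174 gene probes on the array, and 14 of the 15 were well above background on at least 1 array, a state that 30030 of all probes shared. These 30030 are called kept probes below. Only Insr, Igfbp3 and Igfbp7 had a probe well above background on all 5 arrays, and Igfbp1 entered through Hepa1-6 alone.

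The study asked how fusion with embryonic stem cells alters the expression programme of a cancer cell, and how that programme behaves when the fused cells leave stem cell culture. RNA of 5 populations was labelled with 1 dye and hybridised to Agilent arrays, 1 array each. ES is the mouse embryonic stem cell line E14, and Hepa1-6 is a mouse hepatoma line. EHe is the hybrid of E14 and Hepa1-6, and EHeD7 and EHeD14 are EHe cells after 7 and 14 days of differentiation. In the study's methods, the ES cells used for fusion carried a red fluorescent protein and hygromycin resistance. Hepa1-6 carried a green fluorescent protein and neomycin resistance, and double-resistant colonies were picked, so that a hybrid line descends from a single colony. The study reports a near-tetraploid chromosome number for almost every hybrid line. Which colony gave the EHe array is not stated. ES and EHe grew in Glasgow medium with 10% serum replacement, 1% bovine serum and 1000 units/ml of leukaemia inhibitory factor. The differentiating hybrids were kept as a monolayer on gelatin in high glucose Dulbecco medium with 15% fetal calf serum, and Hepa1-6 in the same basal medium with 10%. Medium and cell state therefore changed together and cannot be told apart. The Hepa1-6 array was on a slide of its own, while the other 4 arrays shared a slide, so that slide and Hepa1-6 cannot be told apart either.

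IGF1 and IGF2 are secreted hormones that drive growth by binding the IGF1 receptor, a tyrosine kinase closely related to the insulin receptor. Most IGF in the body is held by IGF binding proteins, which carry it in the blood, store it in the matrix, shield it from the receptor or release it when proteases cut them. The liver is the main source of circulating IGF1. IGFBP1 is a classical liver product that insulin represses, whereas IGFBP2 is abundant in fetal tissues, IGFBP3 is the main serum carrier, IGFBP4 and IGFBP5 are cut by pappalysins, and IGFBP7 is a relative with weak IGF affinity.

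Signals are given as the scanner software's processed intensity of the brightest probe of each gene. Differences were taken on the log2 scale after dividing each array by its 75th percentile, which was 1074 in ES, 1281 in EHe, 1290 at day 7, 1311 at day 14 and 1390 in Hepa1-6. With 1 array per condition there is no replicate error and no test was made. A gene was counted as higher or lower past 3-fold, and errors printed after ± are the scanner software's own error of both spots, which leaves out culture, RNA and labelling. A probe that was not well above background has only a bound, and its fold is given as "at least", with the dim side raised to the lowest signal the array called well above background. That limit was 25.4 in ES, 45.1 in EHe, 18.3 at day 7, 28.4 at day 14 and 36.8 in Hepa1-6. EHe had the highest limit, and both differentiation comparisons used its array, so that they share its noise.

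The labels were first set against marker genes. Pou5f1, a core pluripotency factor, had a signal of 14594 in ES, 21296 in EHe, 27691 at day 7 and 24111 at day 14, and was not well above background in Hepa1-6. Alb, the albumin gene, reached 97125 in Hepa1-6 and was not well above background on the other 4 arrays. The hepatocyte markers, 8 of 10 with a value, summed to 250 times the array's 75th percentile in Hepa1-6, with Afp as the brightest probe, against 0.731 in ES, 0.356 in EHe, 0.636 at day 7 and 0.5003 at day 14. Ttr and Apoa1, the hepatocyte markers without a value, were not well above background on any array, Hepa1-6 included. EHe was thus stem-cell-like by these markers and Hepa1-6 hepatocyte-like by the hepatocyte markers with a value. At days 7 and 14 Alb, Afp, Fgb and Foxa1 were not well above background. Trf, Hnf4a and Foxa2 were well above background on both days, and Apob at day 7.

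**Figure D1:**
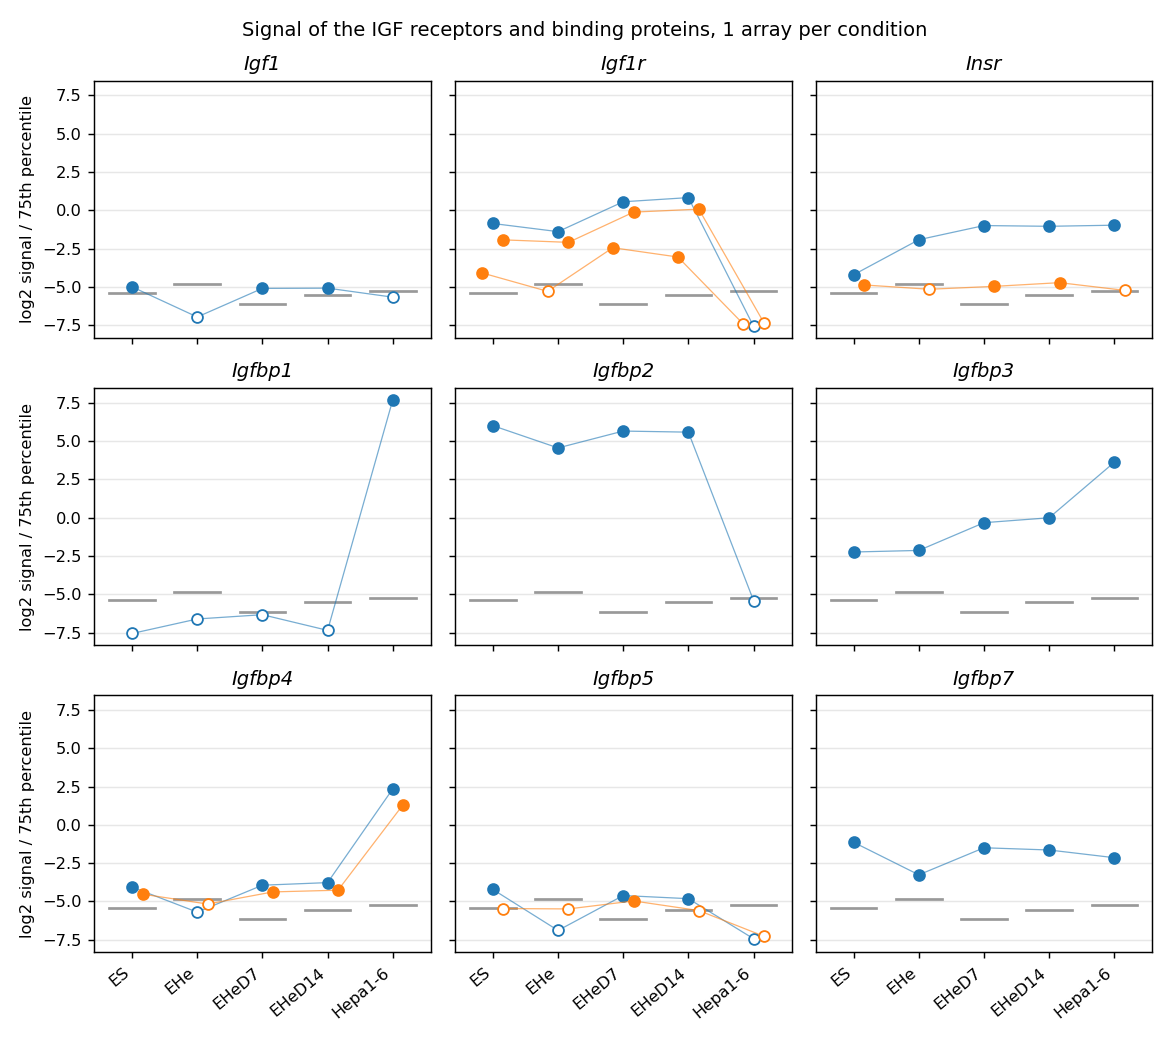
Signal of each gene on the 5 arrays, as log2 of the signal over the array's 75th percentile. Blue circles are the brightest probe and orange circles the other kept probes, open circles were not well above background, and grey bars mark each array's detection limit. Igfbp1 stands above the limit only in Hepa1-6, while Igfbp2 and Igf1r fall to it there.

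The promoters of Igfbp1, Igfbp2 and Igfbp3 are shown first. Igfbp1 and Igfbp2 had the widest range over the 5 arrays among the 9 genes, in opposite directions between the parental lines. Igfbp3 was chosen as the neighbour of Igfbp1 on chromosome 11, with no coding gene between them, since the 2 genes differed in the hybrids. Igfbp2 has Igfbp5 as its neighbour on chromosome 1. Each window holds the 250 bases before a RefSeq start of transcription in GRCm38.p6, and Igfbp2 had a second window, which is not printed. The Igfbp3 window lies inside the annotated span of its gene, 7206086 to 7215498, so it does not precede the gene's outermost start. Capitals mark matches on either strand to CAAAACA (core of the insulin response element), GTTAAT (part of the site of the liver factor HNF1, read as ATTAAC on the other strand), GGGCGG (the GC box) and CACGTG (the E box). TATAAA and CCAAT were also searched, and neither was present in these 3 windows.
Igfbp1, chr11:7197537-7197786, plus strand: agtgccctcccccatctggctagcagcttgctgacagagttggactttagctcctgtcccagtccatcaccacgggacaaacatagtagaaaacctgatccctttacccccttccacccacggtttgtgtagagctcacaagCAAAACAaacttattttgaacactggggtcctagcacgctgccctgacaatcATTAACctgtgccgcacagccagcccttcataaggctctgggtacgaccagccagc
Igfbp3, chr11:7213924-7214173, minus strand: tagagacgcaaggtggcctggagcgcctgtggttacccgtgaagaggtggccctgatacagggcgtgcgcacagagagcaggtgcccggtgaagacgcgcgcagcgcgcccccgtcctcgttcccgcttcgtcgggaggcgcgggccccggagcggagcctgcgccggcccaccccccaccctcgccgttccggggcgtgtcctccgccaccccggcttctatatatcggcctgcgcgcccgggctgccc
Igfbp2, chr1:72824230-72824479, plus strand: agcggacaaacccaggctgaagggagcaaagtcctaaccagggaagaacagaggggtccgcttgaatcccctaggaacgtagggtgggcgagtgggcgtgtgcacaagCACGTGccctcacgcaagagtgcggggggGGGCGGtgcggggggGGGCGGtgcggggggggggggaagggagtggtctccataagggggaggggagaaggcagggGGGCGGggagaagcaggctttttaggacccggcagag

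The Igfbp1 window held CAAAACA 108 bases and ATTAAC 56 bases before the start, motifs found in 5.56% and 6.43% of 32851 promoter windows of this length. Its GC content was 53.2%, close to the median of 52.4%. The Igfbp3 window held none of the 6 motifs and differed in composition, with 73.2% GC and 32 CpG dinucleotides against 5 in Igfbp1 and a median of 6. The printed Igfbp2 window had 67.2% GC, 3 GC boxes and 1 E box, whereas the second Igfbp2 window, chr1:72825137-72825386, had 56.4% GC and none of the 6 motifs. GC boxes stood in 32.7% and E boxes in 6.02% of all windows. A match is a description of letters and was not tested as a binding site.

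Parental cells differed most. Against ES, Hepa1-6 had 4 of the 9 genes with a value past 3-fold higher (Insr, Igfbp1, Igfbp3 and Igfbp4), where 14.9% of kept probes were, and 3 past 3-fold lower (Igf1r, Igfbp2 and Igfbp5), where 24.6% were. With dim signals at their limit 4 and 2 remained, where 12.9% of kept probes were higher and 17.0% lower, since Igfbp5 was bounded only at 2.03-fold. The members' median log2 difference was -0.67, beside -0.34 over all kept probes, and -0.25 beside -0.15 with dim signals at their limit. Centring each array on its median in place of the 75th percentile moved the median of all probes in this comparison to 0.40, and higher probes from 37.7% to 60.5% of those past 3-fold (49.3% under quantile scaling), but the same 4 and 3 members were counted.

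Igfbp1, whose product carries IGF and is made mainly by hepatocytes, had a signal of 285455 in Hepa1-6. It was 5.69 in ES, 13.1 in EHe, 15.99 at day 7 and 8.004 at day 14, below the detection limit on each. Hepa1-6 was therefore at least 8689-fold above ES. No rank among the kept probes can be read from this, since the value is a bound and other dim probes also have only bounds. The hybrid was at least 5829-fold lower than its hepatoma parent. After 14 days of differentiation the bound was at least 9480-fold lower. Igfbp1 thus stayed under the detection limit in all 3 hybrid samples, and the orders among them could not be read.

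Igfbp2, the fetal binding protein, had the mirror pattern. Its signal was 68876 in ES, 29981 in EHe, 64740 at day 7, 62642 at day 14 and 32.7 in Hepa1-6, the last not well above background. Hepa1-6 was at least 2420-fold below ES. EHe was 2.74-fold below ES (log2 -1.45 ± 0.20). The differentiated hybrids were 2.15-fold above EHe at day 7 and 2.04-fold at day 14, which is short of 3-fold, and day 7 and day 14 differed by less than the scanner error (log2 -0.07 ± 0.20). At day 14 the hybrid was at least 1803-fold above Hepa1-6. Igfbp2 and Pou5f1 were both measured in ES and in the 3 hybrid samples, and neither was well above background in Hepa1-6.

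Igfbp3, which carries IGF in a serum complex with the product of Igfals, was measured on every array, at 227 in ES, 291 in EHe, 1026 at day 7, 1303 at day 14 and 17022 in Hepa1-6. Hepa1-6 was 57.9-fold above ES (log2 5.86 ± 0.21). ES and EHe differed by less than the scanner error (log2 0.10 ± 0.21). Day 7 was 3.51-fold and day 14 4.38-fold above EHe (log2 1.81 ± 0.21 and 2.13 ± 0.21). Under normexp correction day 7 stood at log2 1.56, just short of 3-fold. At day 14 the hybrid still lay 12.3-fold below Hepa1-6. Igfbp3 and its neighbour Igfbp1 were thus both highest in Hepa1-6, while in the hybrids Igfbp3 was measured and higher after differentiation and Igfbp1 stayed dim.

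Igfbp4, a binding protein that mostly restrains IGF, was likewise highest in Hepa1-6. Its brightest probe gave 64.3 in ES, 24.7 in EHe, 84.1 at day 7, 96.2 at day 14 and 7067 in Hepa1-6, and was not well above background in EHe. Hepa1-6 was 84.9-fold above ES on this probe and 57.6-fold on a second. The differentiated hybrids were at least 1.85-fold above EHe at day 7 and at least 2.08-fold at day 14, and 69.3-fold below Hepa1-6 at day 14. On measured signals both days passed 3-fold, but the EHe value was under the detection limit, so the size is not known. The second probe, also dim in EHe, stayed under 3-fold even as measured, at 1.73-fold on day 7 and 1.87-fold on day 14, with bounds of 1.37-fold and 1.48-fold. ES, EHeD7 and EHeD14 stood in an order whose neighbours differed by less than the scanner error.

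Igfbp5, a binding protein of bone and muscle matrix, was close to the limit throughout, at 57.8 in ES, 10.8 in EHe, 52.7 at day 7, 46.5 at day 14 and 8.06 in Hepa1-6. It was not well above background in EHe and Hepa1-6. The differences against EHe were bounded at 1.16-fold higher at day 7 and 1.01-fold at day 14. A second probe was well above background in EHeD7 alone. Nothing past 3-fold could be shown for this gene.

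Igfbp7, a secreted protein with weak IGF affinity that is found in vessel walls and matrix, was measured on every array, at 488 in ES, 134 in EHe, 457 at day 7, 420 at day 14 and 315 in Hepa1-6. EHe was the lowest of the 5, 4.35-fold below ES (log2 -2.12 ± 0.24), which was short of 3-fold under normexp correction (log2 -1.47), and 2.17-fold below Hepa1-6. The hybrid thus lay below both of its parents. Day 7 was 3.40-fold and day 14 3.07-fold above EHe (log2 1.77 ± 0.24 and 1.62 ± 0.24). Both values stood within their error of the 3-fold line, and day 7 and day 14 differed by less than that error. Against EHe, normexp correction gave log2 1.28 at day 7 and 0.95 at day 14, and median centring 1.48 at day 14, all short of 3-fold.

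The receptors separated the parental cells in opposite directions on their brightest probes, while a second Insr probe did not show this. Igf1r, the receptor through which IGF1 and IGF2 act, gave 595 in ES, 491 in EHe, 1907 at day 7, 2340 at day 14 and 7.39 in Hepa1-6, where it was not well above background. Hepa1-6 was at least 20.9-fold below ES, while a second probe gave at least 9.97-fold and the dimmest at least 2.22-fold. EHe was 1.45-fold below ES. Day 7 was 3.86-fold and day 14 4.66-fold above EHe (log2 1.95 ± 0.21 and 2.22 ± 0.21), and the second probe gave 3.93-fold and 4.49-fold. The dimmest gave at least 5.25-fold and at least 3.45-fold. All 3 probes of Igf1r thus passed 3-fold on both days, and day 14 stood at least 67.4-fold above Hepa1-6. The differentiated hybrids were thus farther from the hepatoma parent than EHe was.

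Insr, the insulin receptor, gave 58.5 in ES, 341 in EHe, 650 at day 7, 639 at day 14 and 713 in Hepa1-6. Hepa1-6 was 9.41-fold above ES (log2 3.23 ± 0.25) and EHe 4.88-fold above ES (log2 2.29 ± 0.25). Insr was the only member past 3-fold higher in EHe than in ES, a call lost under normexp correction (log2 1.26) and with the mean of both probes (log2 1.00), which also took Hepa1-6 against ES to log2 1.44. The differentiated hybrids were 1.90-fold above EHe at day 7 and 1.83-fold at day 14, and EHeD7, EHeD14 and Hepa1-6 differed by less than the scanner error. A second Insr probe did not follow this pattern: its signals were 36.9, 36.2, 41.6, 49.96 and 37.4 in the same order of arrays, near the limit, and it was not well above background in EHe and Hepa1-6. Whether the probes read different transcripts was not tested.

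Igf1, the main growth hormone target in liver, had low signals on every array. Its brighter probe, printed as 10 spots, gave 33.8 in ES, 10.3 in EHe, 37.9 at day 7, 39.0 at day 14 and 27.5 in Hepa1-6, and was not well above background in EHe and Hepa1-6. The detection limit of EHe was above the signals of the other arrays, so no fold against EHe can be given. The second probe was not well above background on any array. Hepa1-6 thus had Igfbp1, Igfbp3 and Igfbp4 measured and Igf1 under its detection limit.

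**Figure D2:**
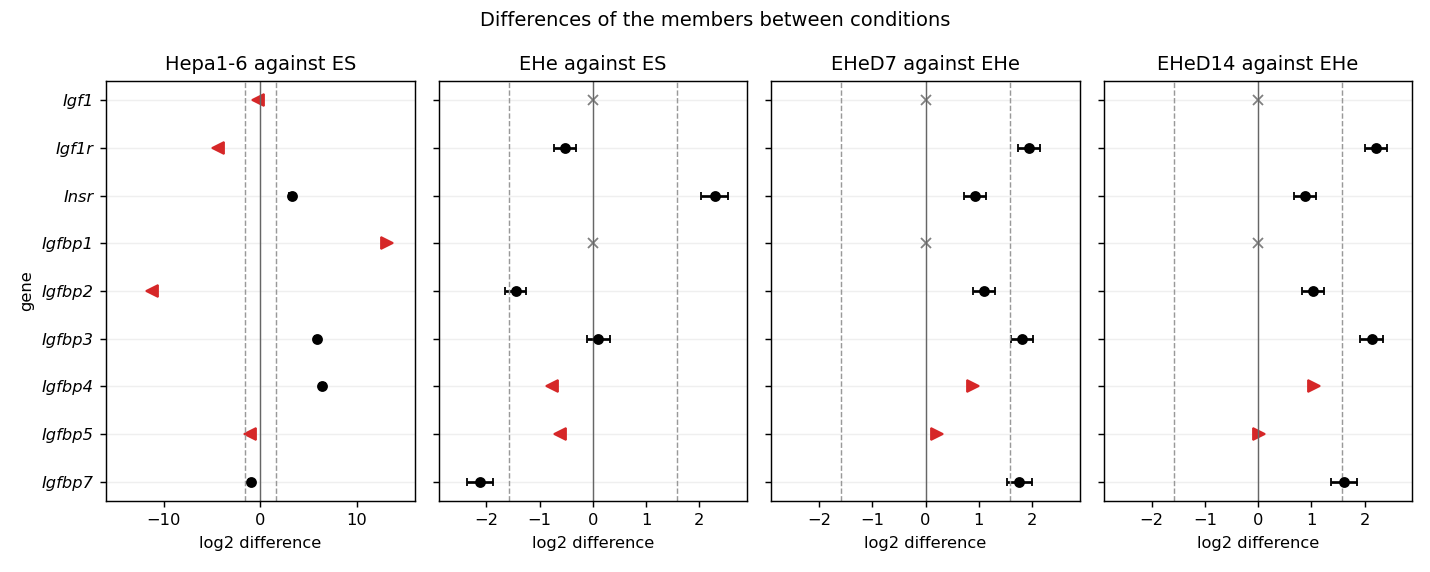
Log2 differences of the 9 genes in 4 comparisons. Black points are measured values with the scanner software's error, red triangles are bounds that point the way the true value lies, grey crosses have no fold, and dashed lines mark 3-fold. Only Igf1r, Igfbp3 and Igfbp7 are measured past 3-fold on both days against EHe. Under normexp correction, which is not drawn, only Igf1r stayed past it on both days.

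After fusion, EHe was compared with each parent. Against ES, 1 member was past 3-fold higher (Insr), where 3.67% of kept probes were, and 4 were lower on measured signals (Igf1, Igfbp4, Igfbp5 and Igfbp7), where 5.71% were. Of these 4, Igfbp7 was measured past 3-fold, while Igf1, Igfbp4 and Igfbp5 had an EHe signal not well above background. With dim signals at their limit 1 of the 4 remained, where 2.81% of kept probes were lower. Under normexp correction none of the 4 remained, where 1.33% were lower, with Igfbp7 at log2 -1.47. The members' median log2 difference was -1.45, against -0.06 over all kept probes, and -0.53 against 0.05 with dim signals at their limit. Against Hepa1-6, EHe had 2 members past 3-fold higher (Igf1r and Igfbp2), where 20.9% of kept probes were, and 3 lower (Igfbp1, Igfbp3 and Igfbp4), where 14.7% were. These counts held with dim signals at their limit, where 15.0% of kept probes were higher and 11.9% lower. Median centring, however, gave 5 lower, adding Igfbp7 and Igf1, the latter not well above background on either array. That setting had 14.1% of kept probes higher and 21.7% lower. For Igf1r, Igfbp1, Igfbp2, Igfbp3 and Igfbp4 the hybrid therefore lay nearer to ES than to Hepa1-6, with Igfbp4 dim and below both parents. For Insr, on its brightest probe, and for Igfbp7 it lay nearer to Hepa1-6, below both parents in the case of Igfbp7.

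Differentiation was compared with EHe at both days. At day 7, 6 of the 9 genes were past 3-fold higher on measured signals (Igf1, Igf1r, Igfbp3, Igfbp4, Igfbp5 and Igfbp7) and 0 lower, where 8.12% of kept probes were higher and 4.19% lower. At day 14 the same 6 were higher and 0 lower, where 8.34% and 4.62% were. The members' medians were 1.77 and 1.88, against -0.07 and -0.05 over all kept probes. With dim signals at their limit the medians were 0.92 and 1.03, against -0.19 and -0.17. At that setting 3 of the 6 remained on each day, Igf1r, Igfbp3 and Igfbp7, where 5.13% and 5.29% of kept probes were higher. Under normexp background correction 1 remained at day 7 (Igf1r) and 2 at day 14 (Igf1r and Igfbp3). With that correction 3.07% and 3.21% of kept probes were higher. Igfbp3 then stood at log2 1.56 on day 7, just short of 3-fold, and Igfbp7 at 1.28 and 0.95. Under median centring Igfbp7 was at 1.48 on day 14. Between day 7 and day 14 no member passed 3-fold, where 1.28% of kept probes were higher and 1.49% lower. Against Hepa1-6, EHeD14 had 3 members higher (Igf1r, Igfbp2 and Igfbp5), where 21.6% of kept probes were, and 3 lower (Igfbp1, Igfbp3 and Igfbp4), where 13.2% were. With dim signals at their limit 2 and 3 remained, where 14.5% and 11.8% of kept probes were. Median centring had 13.8% of kept probes higher and 22.9% lower in that comparison, with the same 3 and 3 members.

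Higher signals after differentiation did not all lie towards the hepatoma parent. Igfbp3 was higher in Hepa1-6 than in ES and higher in EHeD14 than in EHe, whereas Igf1r was lower in Hepa1-6 and higher in EHeD14. Igfbp1, the member with the widest parental difference, had no measured signal in EHe or EHeD14. In bulk RNA, a smaller share of expressing cells and less RNA per cell cannot be told apart.

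**Figure D3:**
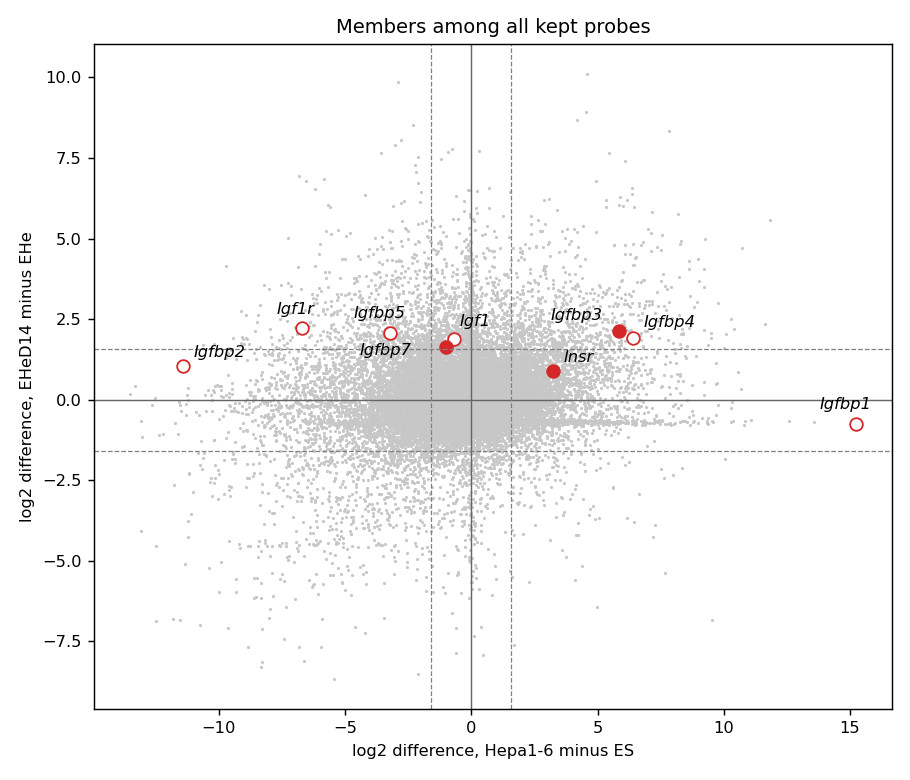
Each grey point is 1 of the 30030 kept probes, with the log2 difference of Hepa1-6 against ES across and of EHeD14 against EHe upwards, comparisons that share no array. Red circles are the brightest probes of the 9 genes, open where a side was not well above background, and dashed lines mark 3-fold. Igf1r and Igfbp3 lie on opposite sides across and at a like height.

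The other genes of the system, and the marker genes, were read on their brightest probe alone. Several had further kept probes that are not reported here. Igf2, Ins2 and Irs1 had 2 kept probes each, and Ghr and Stc1 had 3 each. Of the ligands and receptors outside the 10 genes, Ins1 had no kept probe. Igf2, the fetal IGF, was measured on every array, at 398 in ES, 90.6 in EHe, 371 at day 7, 916 at day 14 and 415 in Hepa1-6. It was 5.24-fold lower in EHe than in ES, 4.07-fold higher than EHe at day 7 and 9.88-fold at day 14, and so shared with Igfbp7 a low in EHe. Igf2r, which takes up IGF2 for degradation, gave 5842 in ES, 8301 in EHe, 10158 at day 7, 8233 at day 14 and 669 in Hepa1-6, 11.3-fold lower in Hepa1-6 than in ES. Ins2 was at least 8.15-fold lower in Hepa1-6 than in ES, and Insrr, an insulin receptor relative, was within 3-fold between the parental lines and between EHe and either day.

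Among 10 relatives and carriers of the binding proteins, 8 had a value, and against EHe 3 were past 3-fold higher as measured and 1 lower on both days, where 8.12% and 8.34% of kept probes were higher and 4.19% and 4.62% lower at days 7 and 14. Ccn2, a matrix protein of the same N-terminal domain family, gave 2539 in ES, 452 in EHe, 26272 at day 7, 33590 at day 14 and 130913 in Hepa1-6, 57.8-fold above EHe at day 7 and 72.7-fold at day 14. Ccn1 was 8.47-fold and 9.74-fold higher. Ccn4 was not well above background in EHe and was at least 1.65-fold and at least 2.48-fold higher, so that 2 of the 3 were measured past 3-fold. Igfals, which holds IGF and IGFBP3 in the serum complex, gave 144, 250, 68.7, 42.0 and 29.4 in the order ES, EHe, EHeD7, EHeD14 and Hepa1-6, and was 3.66-fold and 6.10-fold below EHe. The carrier of the serum complex thus moved opposite to Igfbp3.

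Of 9 proteases that cut binding proteins and their inhibitors, 7 had a value and 2 were past 3-fold higher than EHe on both days as measured, where 8.12% and 8.34% of kept probes were, and neither reached 3-fold with EHe at its limit. Htra1 was 3.49-fold lower at day 7 and 2.51-fold at day 14. Stc1, an inhibitor of pappalysins, gave 18.7, 19.4, 125, 71.2 and 5424 in that order, at least 2.74-fold and at least 1.54-fold above EHe and at least 165-fold higher in Hepa1-6 than in ES. Pappa, the protease that cuts IGFBP4, was well above background only at days 7 and 14, with 36.1 and 41.8, both under the limit of EHe.

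Downstream of the receptors, 12 of 13 receptor substrates and adaptors had a value, with no value for Irs2. Irs1, the main docking protein of both receptors, gave 67.3 in ES, 232 in EHe, 2223 at day 7, 2110 at day 14 and 5270 in Hepa1-6. It was 9.52-fold above EHe at day 7 and 8.89-fold at day 14, and 60.5-fold higher in Hepa1-6 than in ES. Irs1 and Insr were thus both lowest in ES on their brightest probes, while the second Insr probe did not follow this. Dok1, an adaptor that restrains kinase signalling, was 3.50-fold and 4.07-fold higher than EHe. Gab1, a docking protein, gave 5714, 9349, 2188, 898 and 397 in the order ES, EHe, EHeD7, EHeD14 and Hepa1-6, 4.30-fold and 10.6-fold lower than EHe.

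All 27 genes of the arm of PI3K, AKT and mTOR had a value. None of them was past 3-fold higher than EHe on either day, and 2 were lower on both, where 8.12% and 8.34% of kept probes were higher and 4.19% and 4.62% lower. Inpp5d, a lipid phosphatase, was 3.49-fold and 7.06-fold lower, and Trib3, a pseudokinase that binds AKT, 6.42-fold and 5.37-fold lower. The list's median log2 difference was -0.05 at day 7 and -0.15 at day 14, close to that of all kept probes. Against ES, Hepa1-6 had 3 of the 27 higher and 5 lower, where 14.9% and 24.6% of kept probes were.

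In the growth hormone axis, the usual driver of Igf1 in liver, 6 of 6 genes had a value. Ghr, the growth hormone receptor, gave 66.8 in ES, 48.6 in EHe, 992 at day 7, 1417 at day 14 and 710 in Hepa1-6, and was not well above background in EHe. It was at least 20.3-fold above EHe at day 7 and at least 28.5-fold at day 14. Socs2, which restrains its signal, was 4.91-fold and 4.93-fold lower. Igf1 was 37.9 and 39.0 on those days, under the limit of EHe. The 3 IGF2 mRNA binding proteins had 0 genes past 3-fold on either day, where 8.12% and 8.34% of kept probes were higher and 4.19% and 4.62% lower.

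**Figure D4:**
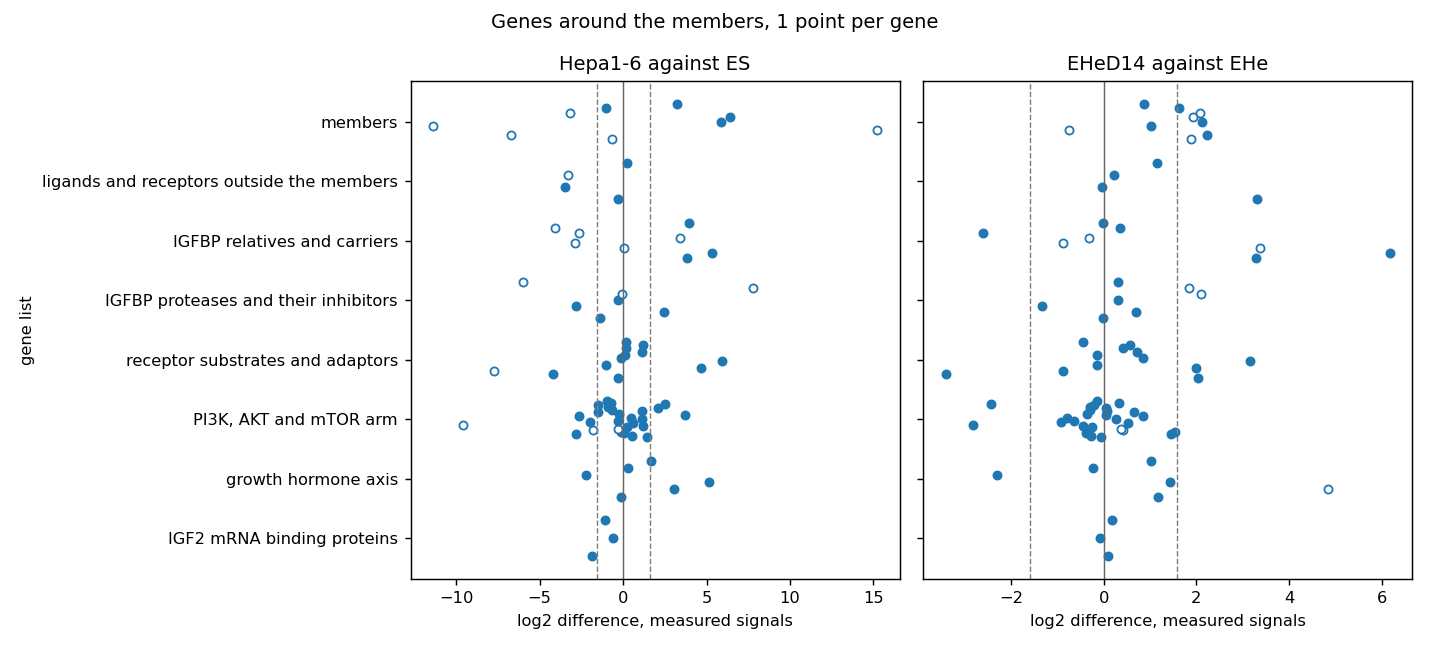
Log2 differences of the members and of the lists around them, 1 point per gene, for Hepa1-6 against ES and EHeD14 against EHe. Open points had a side not well above background and dashed lines mark 3-fold. The PI3K, AKT and mTOR list lies between the lines at day 14 except for 2 genes on the left.

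Markers of other cell types moved with these differences. Of 7 pluripotency markers with a value, 4 were past 3-fold lower than EHe on both days (Esrrb, Klf4, Zfp42 and Sox2), where 4.19% and 4.62% of kept probes were. The list summed to 342 times the 75th percentile in ES, 396 in EHe, 243 at day 7, 136 at day 14 and 24.6 in Hepa1-6, where Klf4 made up most of it. Dppa5a had the brightest probe of the list on the other arrays. Of 9 mesenchyme and fibroblast markers with a value, 6 were past 3-fold higher on both days as measured, where 8.12% and 8.34% of kept probes were. Of the 6, Col3a1 and Postn were not well above background in EHe. Col1a1 was 22.3-fold and 19.6-fold higher and Col1a2 5.34-fold and 5.12-fold. Col3a1 was at least 1.83-fold and at least 2.18-fold higher, and Postn, with no fold at day 7, at least 1.46-fold higher at day 14. That list summed to 1.81 in ES, 1.10 in EHe, 5.23 at day 7, 5.89 at day 14 and 184 in Hepa1-6. Thy1 had its brightest probe except in Hepa1-6, where Dcn had it, and Dcn was not well above background on the other 4 arrays. Of 5 smooth muscle markers, 3 were measured past 3-fold higher on both days, where 8.12% and 8.34% of kept probes were. Cnn1 was 28.3-fold and 38.5-fold higher, Tagln 15.8-fold and 13.4-fold and Des 3.65-fold and 4.402-fold. Acta2 and Myh11 did not pass 3-fold on either day, and Myh11 was not well above background in EHe. That list summed to 16.3, 14.0, 28.8, 28.4 and 18.4 in the order ES, EHe, EHeD7, EHeD14 and Hepa1-6. Acta2 had its brightest probe, at 14.2, 12.9, 12.9, 13.2 and 17.8 in that order. Of 7 extraembryonic endoderm markers, 2 were past 3-fold higher (Dab2 and Lamb1) and 2 lower (Sox7 and Lama1) at day 7. At day 14, 4 were higher (Dab2, Lamb1, Sox17 and Gata6) and 0 lower. Of kept probes, 8.12% were higher and 4.19% lower at day 7, and 8.34% and 4.62% at day 14. The list summed to 8.18, 2.65, 7.36, 9.60 and 1.13, with the probe of Gata6 the brightest in ES, Lama1 in EHe and Lamb1 on the other arrays. Of 5 endothelial markers 2 had a value, and Pecam1 was past 3-fold lower on both days, while the sums were 0.830, 0.415, 0.0727, 0.0482 and 0.0166. At day 14 Tek was well above background and Pecam1 was not. Of the hepatocyte markers, Foxa2, a liver and endoderm factor, was past 3-fold higher on both days as measured, with signals of 151, 10.6, 55.1, 247 and 15185, which allow at least 1.21-fold at day 7 and at least 5.36-fold at day 14. Igf1r, Igfbp3 and Igfbp7 were higher in the same samples as markers from the mesenchyme, smooth muscle and extraembryonic endoderm lists and as Foxa2. The part of any of those cell types in the result was not tested.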

How the data were processed

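Total RNA of 5 mouse cell populations was measured on 1-colour Agilent arrays, 1 per population, with groups taken from the sample labels. The deposited files hold scanner intensity per spot, which the authors extracted with Agilent Feature Extraction 10.7.3.1 (local background and spatial trend removed, no scaling between arrays). Well-above-background calls were used as deposited, and the deposited series table equals the processed signal. Per the labels the dye was Cy3 and the hybrids differentiated as a monolayer, whereas the study's array methods name Cy5. Its differentiation methods describe embryoid bodies without naming the array samples. The labels were followed.

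The 10 genes and the other lists were chosen with earlier results of these data known. Control spots and outlier spots (73 to 174 per array) did not enter, and 0 spots were saturated. Spots of a probe were averaged as log2 intensity after division by the array's 75th percentile over 41174 probes. Probes were named by matching RefSeq accessions without versions (26888 named, 14286 not). A gene was read on its brightest probe among those well above background on at least 1 of 5 arrays. A call required at least 0.5 of a probe's spots. Differences past 3-fold were counted without a test, the number of arrays being what limits precision. Repeated spots of 245 probes had a median SD of 0.092 to 0.14 (log2). The 10 spike-in probes, scaled alike, had medians between -0.85 and -0.43 against ES, so that a common shift between arrays of that size is not resolved.

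From each further list the genes past 3-fold in the same direction on both days against EHe were named, at most 4 by size at day 14, and all ligands and receptors. Outside that rule stand markers named for identity, probe brightness or a single day (Pou5f1, Alb, Afp, Apob, Trf, Fgb, Hnf4a, Foxa1, Dcn, Acta2, Dppa5a, Gata6, Sox7, Sox17, Lama1, Tek), Htra1, and Thy1, which passed 3-fold but was not among the 4 of its list. Also outside it are Ttr and Apoa1, named as markers without a value, and Myh11, named as a marker that did not pass 3-fold. The counting procedure was checked on simulated data with known folds, which is no test of the members. Alternatives were normexp correction (offset 50, limma 3.58.1 in R 4.3.3), quantile and median scaling, the series table, raised dim signals, other filters, the mean of a gene's probes and 2-fold. Python 3.11.15, numpy 2.4.6, pandas 2.3.3 and matplotlib 3.10.9 were used. Promoter windows came from RefSeq (GRCm38.p6) for 9 of the 10 genes.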

Additional observations from a re-analysis of the deposited data

How the results depend on the processing

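With 1 array per condition, the alternatives changed counts of members past 3-fold as follows. Under normexp correction, which shrinks dim differences by construction, EHe against ES had 0 higher and 0 lower, EHeD7 against EHe 1 higher (Igf1r) and EHeD14 against EHe 2 higher (Igf1r and Igfbp3). With dim values raised to the limit, EHe against ES had 1 lower, and EHeD7 and EHeD14 against EHe had 3 higher each. Igf1 then changed sign, by construction of the EHe limit, to 0.16 in EHe against ES, -0.26 in EHeD7 against EHe and -0.24 in EHeD14 against EHe. With only probes well above background on all arrays, 3 genes were left: Hepa1-6 against ES had 2 higher and 0 lower, EHe against ES 1 lower, EHe against Hepa1-6 0 higher and 1 lower, both days against EHe 2 higher, and EHeD14 against Hepa1-6 0 higher and 1 lower. With the mean of a gene's probes, EHe against ES had 0 higher and 2 lower. Median centring and the 2-fold threshold each gave 5 lower in EHe against Hepa1-6, where 21.7% and 21.2% of kept probes were lower. Among these 5, Igf1 was dim on both arrays. The 2-fold threshold also gave 1 lower in EHeD14 against EHeD7 (Igfbp1, dim on both arrays), where 3.03% of kept probes were. The cause of the other changes was not tested. The other 110 counts and spot noise values stayed within 1.5 times of those reported. Of 35 member differences past 3-fold, 19 stayed past it under normexp, 33 under quantile and 33 under median scaling, 24 with raised dim values, 27 with the mean of probes and 35 with the series table and without a filter. Higher probes among those past 3-fold changed from 58.8% to 39.5% under median centring in EHe against Hepa1-6 and from 62.0% to 37.6% in EHeD14 against Hepa1-6. Repeated spots under a signal of 100 had a median SD of 0.19 to 0.27 (log2). Igf1, Igfbp5, Insr in ES and, outside Hepa1-6, Igfbp4 are therefore limited by background. A slide block could not be fitted. No paired analysis was possible because every population was read on a single array.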

Other observations

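A probe outside the rule, which the study's annotation assigns to Igfbp3 through a GenBank entry, gave 45.8 in ES, 21.4 in EHe, 73.4 at day 7, 81.5 at day 14 and 713 in Hepa1-6, and was not well above background in EHe. It was chosen after its values were seen. Hepa1-6 was 12.0-fold above ES on it, and EHeD14 at least 1.77-fold above EHe, in the direction of the brighter Igfbp3 probe.

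The genes with the most similar profiles were sought for the 3 members measured on all 5 arrays, by Euclidean distance between centred log2 profiles among 10893 genes, as a description over 5 arrays. Nearest to Insr were Crct1 (distance 0.46), Colec12 (0.58) and Rock2 (0.61). Nearest to Igfbp3 were S100a1 (0.37), Mboat1 (0.49) and Maff (0.59). Nearest to Igfbp7 were Dapk1 (0.42), Fcgbp (0.46) and Vwce (0.47).

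Of 36 gaps between neighbours in the order of levels of the 9 genes, 25 lay between arrays where both signals were well above background. In 15 of these the gap exceeded the scanner error, and in 10 it did not.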
